A study of Mus musculus with 16 samples.

Results

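The genes described here are 10 genes of the contractile apparatus: Actg2, Acta2, Myh11, Tagln, Cnn1, Cnn2, Myl9, Tpm1, Tpm2 and Tnnc2. They were selected on measured values, the differences between groups on these same arrays, and every probe set that the platform annotation assigns to 1 of these symbols was taken, without selecting among probe sets. That gave 17 probe sets, of 22690 on the array and of 20380 that carry a single gene symbol (12393 genes). Because the values shaped the choice, the members' own levels and differences are given as a description, without p-values.

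The arrays measured RNA from cultured mouse tumour cells of the small cell lung cancer type. There were 2 lines, 3583T3 and 3151T4, each established in serum-containing culture from the dissociated lung tumour it is named after. Each line was profiled in 4 forms, with 2 arrays for each form in each line. The Nfib form carried the MSCV-Nfib-PGK-Neo vector, which expresses a FLAG-tagged mouse Nfib cDNA and was selected with G418. The Mycl1 form carried MSCV-L-myc-PGK-Puro, which expresses L-myc (Mycl1, now Mycl) and was selected with puromycin, the Nfib+Mycl1 form carried both vectors, and the control form was not transfected. No empty-vector form was among the arrays analysed, so each transgene came together with its vector and drug selection, and the effects of these cannot be told apart. The labels number the replicates but do not say that they were separate cultures, so the spread between them may be technical. Every vector form of a line is compared with the same 2 control arrays.

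Smooth muscle contracts when myosin, switched on by phosphorylation of its regulatory light chain, pulls on actin filaments that are dressed with tropomyosin and calponin. Serum response factor (SRF) binds a DNA element called the CArG box near many of these genes and, with the coactivator myocardin or its actin-sensing relatives, drives their transcription. Several of them, among them Acta2, Tagln and Cnn1, also serve as markers of myofibroblasts. NFIB is a DNA-binding transcription factor and L-MYC is a member of the MYC family, and both are known for gene amplification in small cell lung cancer.

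RefSeq promoter windows of build GRCm38.p6, running from 250 bases before the gene's start to 50 bases after it on the gene's own strand, were held for 7 of the 10 genes: Acta2, Cnn1, Cnn2, Myl9, Tnnc2, Tpm1 and Tpm2. The windows were searched for the CArG box in its strict form, CCWWWWWWGG, where W is A or T. This motif of 10 bases is its own reverse complement, so that a match on either strand is the same match. Stretches that depart from this form at a single base, such as ccctatatgg in the Acta2 window, were not counted as matches. It was the only motif searched. Myl9 and Cnn2 are shown because theirs were the windows of the 7 that held a match, which is in capitals. Tnnc2 is shown because its level went the opposite way to the smooth muscle genes in 3151T4, and its window held no match.
Myl9: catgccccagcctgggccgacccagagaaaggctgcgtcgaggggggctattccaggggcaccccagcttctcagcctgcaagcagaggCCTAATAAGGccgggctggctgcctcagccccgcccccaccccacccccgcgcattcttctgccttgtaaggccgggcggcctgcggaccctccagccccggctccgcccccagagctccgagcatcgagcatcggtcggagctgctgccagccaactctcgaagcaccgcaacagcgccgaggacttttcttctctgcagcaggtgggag
Cnn2: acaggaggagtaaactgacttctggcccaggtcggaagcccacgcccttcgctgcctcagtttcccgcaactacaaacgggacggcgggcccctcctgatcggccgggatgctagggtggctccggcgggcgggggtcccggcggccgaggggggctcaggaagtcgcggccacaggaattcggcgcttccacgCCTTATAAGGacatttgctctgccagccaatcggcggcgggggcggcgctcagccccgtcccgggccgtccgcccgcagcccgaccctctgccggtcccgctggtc
Tnnc2: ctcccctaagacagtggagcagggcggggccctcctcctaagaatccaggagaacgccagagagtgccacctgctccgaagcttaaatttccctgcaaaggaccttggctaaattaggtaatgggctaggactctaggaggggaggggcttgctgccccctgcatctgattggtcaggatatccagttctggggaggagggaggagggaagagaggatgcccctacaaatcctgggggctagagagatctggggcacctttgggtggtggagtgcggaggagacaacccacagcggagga
The Myl9 window is chr2:156775214-156775513 on the plus strand, with its match 161 to 152 bases before the start. The Cnn2 window is chr10:79988350-79988649 on the plus strand, with its match 56 to 47 bases before the start. The Tnnc2 window is chr2:164779685-164779984 on the minus strand. Of all 32851 mouse promoter windows of the same length, 535 held a match (1.63%). A match is a description of these letters and was not tested as a binding site.

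Values are log2 signal from Affymetrix 3' arrays after GCRMA, a background correction and normalization. Array medians lay between 6.26 and 6.43, and single values between 0.48 and 14.4. A probe set was tested if it exceeded log2 4 on at least 2 of the 16 arrays. All 17 member probe sets and 15799 probe sets in all met this. Probe sets of different genes differ in brightness for technical reasons, so levels are compared between samples and never between genes. The brightest Mycl probe set (1422087_at) read 10.22 for the label 3583T3 Nfib replicate 2 and 2.67 for the label 3583T3 Nfib+Mycl1 replicate 2, against 2.28 for 3583T3 Nfib replicate 1 and 11.05 for 3583T3 Nfib+Mycl1 replicate 1. Those 2 arrays therefore went against their labels, and over all probe sets each of the 4 arrays of these 2 groups correlated best with an array of the other group, while the other 12 arrays each correlated best with the partner of their own group. The labels were kept, and results that rest on the 2 arrays are also given without them where the value or call moved. The brightest Nfib probe set read 9.82 to 10.45 on the 4 Nfib arrays and 10.11 to 10.34 on the 4 Nfib+Mycl1 arrays, against 10.48 to 10.76 on the 4 control arrays, and no Nfib probe set marked the Nfib forms. A Mycn probe set (1425923_at) read 12.19 to 13.26 on all 12 vector arrays, those with Nfib alone included, against 2.03 to 2.56 on the 4 control arrays. That high reading came from 1425923_at only. For Mycn by 1417155_at the vector arrays gave 2.81 to 4.93 and the control arrays 3.31 to 5.39. By 1425922_a_at the range over all 16 arrays was 2.94 to 3.42. Of the neuroendocrine markers that define this tumour type, Chga, Chgb, Syp, Dll3 and Neurod1 did not pass the filter in either line (Chga read 2.14 to 2.61 on all arrays), while Uchl1 and Ncam1 did. Of 15 such markers 5 were tested, and over both lines Nfib lowered 1, Mycl1 1 and Nfib+Mycl1 2, and none rose. By the same rule 8.46%, 9.96% and 29% of all probe sets rose or fell with these forms.

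The lines differed in these genes before any vector was added. On the control arrays 15 of the 17 probe sets were higher in 3583T3 than in 3151T4, with a median difference of 1.02 on the log2 scale over the 17 probe sets and of 0.05 over all tested probe sets. At least 1 log2 unit separated the line means of 10 of the 17, 9 of them higher in 3583T3, a size that 10.5% of all probe sets reached in that direction and 11.1% in the other. Myh11, the smooth muscle myosin heavy chain, was the furthest apart: its brighter probe set read 10.74 and 10.88 in 3583T3 control cells, against 2.96 and 2.75 in 3151T4 control cells. Cnn1 read 10.95 and 11.39 in 3583T3 control cells, against 9.01 and 8.52 in 3151T4 control cells. Actg2, smooth muscle gamma-actin, was the exception with a sizeable difference, at 7.07 and 8.17 in 3583T3 control cells against 9.25 and 9.03 in 3151T4 control cells. These comparisons rest on 2 arrays per line, too few for a lack of overlap between arrays to set a gene apart.

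**Figure D1:**
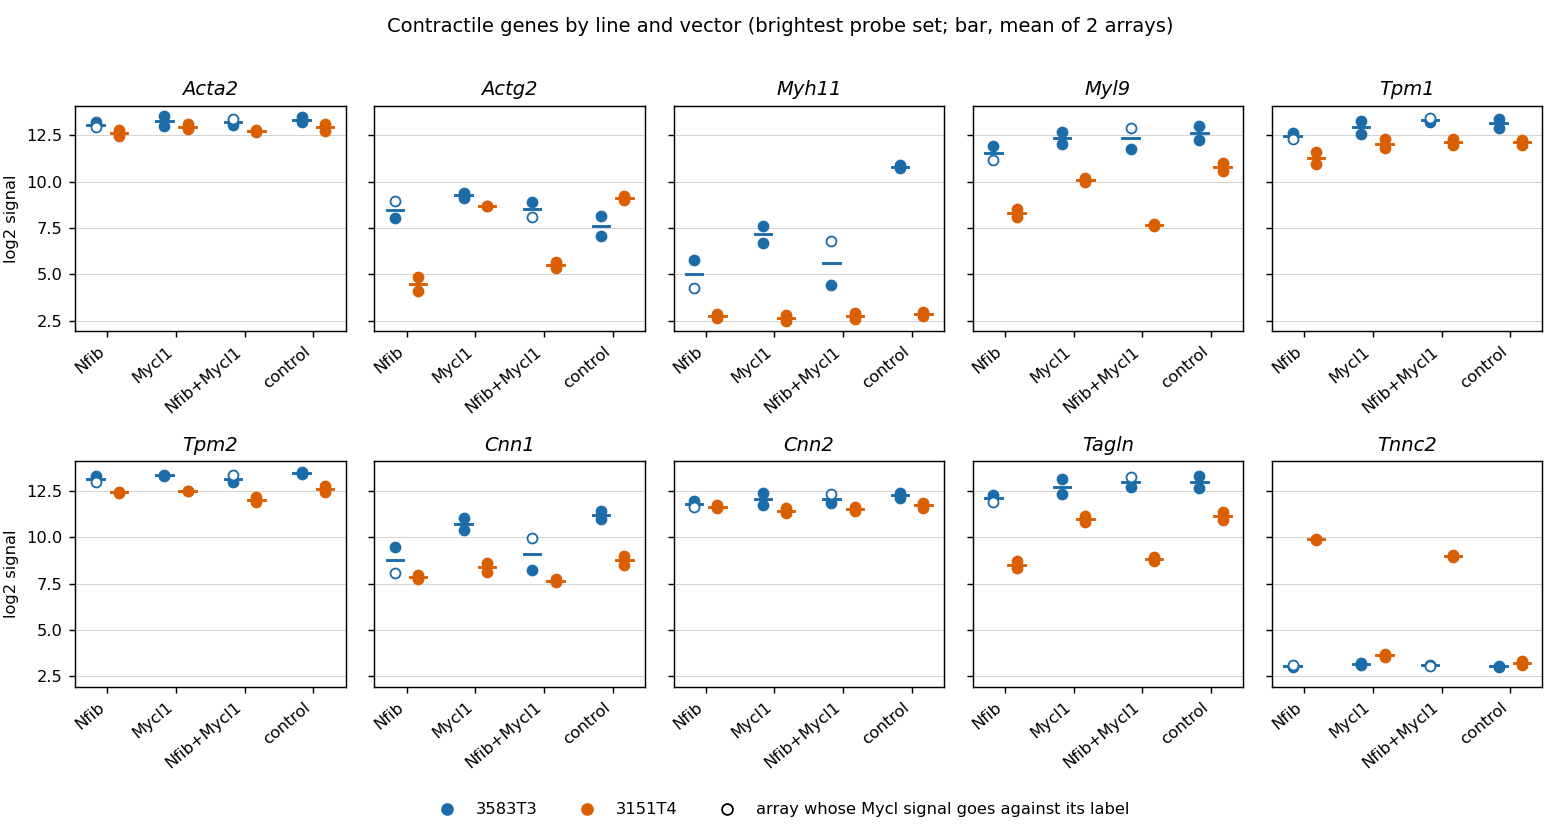
GCRMA log2 signal of the brightest probe set of each of the 10 genes (vertical axis) in Nfib, Mycl1, Nfib+Mycl1 and control cells (horizontal axis), with 3583T3 arrays in blue and 3151T4 arrays in orange. Points are single arrays, bars are means of 2 arrays, and open circles are the 2 arrays that went against their labels. Myh11 is lower with each vector form in 3583T3 and stays between 2.49 and 2.96 in 3151T4, while Actg2, Tagln and Myl9 are lower, and Tnnc2 higher, in the 3151T4 forms that carry Nfib.

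The motor proteins are described first. Myh11 in 3583T3 read 5.79 and 4.25 in Nfib cells, 7.63 and 6.70 in Mycl1 cells and 4.41 and 6.81 in Nfib+Mycl1 cells, against 10.74 and 10.88 in control cells. Each vector form lay below both control arrays, and the arrays of the vector forms overlapped one another in part. The difference from control was -5.79 ± 0.61 with Nfib (SE, log2), which is 55.5-fold lower signal. It was -3.65 ± 0.61 with Mycl1 (12.5-fold lower) and -5.20 ± 0.61 with Nfib+Mycl1 (36.8-fold lower). The Nfib difference was -5.02 and the Nfib+Mycl1 difference -6.40 without the 2 doubted arrays. In 3151T4 the same probe set read 2.49 to 2.96 on all 8 arrays, below the filter level, so a decrease could not have been measured there. The dimmer Myh11 probe set (1418122_at) gave 3.03 and 3.13 with Nfib, 3.54 and 3.24 with Mycl1 and 3.14 and 3.17 with Nfib+Mycl1, against 5.31 and 5.84 in 3583T3 control cells. In 3151T4 it was dim too, except for a single Nfib+Mycl1 array at 4.71, whose partner read 2.88. The correlation of the 2 Myh11 probe sets over the 8 group means was 0.83.

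Myl9, the regulatory light chain whose phosphorylation starts contraction, changed in the other line. In 3151T4 it read 8.56 and 8.12 with Nfib, 9.98 and 10.18 with Mycl1 and 7.63 and 7.74 with Nfib+Mycl1, against 11.02 and 10.56 in control cells. The 4 arrays with Nfib lay below the Mycl1 arrays, and those below the control arrays. The difference was -2.46 ± 0.36 with Nfib (5.49-fold lower), -0.71 ± 0.36 with Mycl1 and -3.11 ± 0.36 with Nfib+Mycl1 (8.61-fold lower). In 3583T3 Myl9 read 11.94 and 11.16 with Nfib, 12.69 and 12.05 with Mycl1 and 11.78 and 12.88 with Nfib+Mycl1, against 12.26 and 13.02 in control cells. There the Nfib arrays lay below control, by 1.09 ± 0.36 on the log2 scale, and the other forms overlapped control, with a Nfib+Mycl1 difference of -0.31 ± 0.36. Omitting the 2 doubted arrays, the Nfib difference was -0.70 ± 0.33 and the Nfib+Mycl1 difference -0.86 ± 0.33, and neither passed.

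The smooth muscle actins behaved differently from each other. Actg2 in 3151T4 read 4.86 and 4.12 with Nfib, 8.70 and 8.69 with Mycl1 and 5.36 and 5.67 with Nfib+Mycl1, against 9.25 and 9.03 in control cells. The forms with Nfib stood far below the others, with differences of -4.65 ± 0.39 with Nfib (25.1-fold lower) and -3.62 ± 0.39 with Nfib+Mycl1 (12.3-fold lower), and of -0.44 ± 0.39 with Mycl1. In 3583T3 Actg2 went the other way, at 8.03 and 8.95 with Nfib, 9.13 and 9.41 with Mycl1 and 8.92 and 8.11 with Nfib+Mycl1, against 7.07 and 8.17 in control cells. The difference there was +1.65 ± 0.39 with Mycl1 (3.14-fold higher), +0.87 ± 0.39 with Nfib and +0.89 ± 0.39 with Nfib+Mycl1, and the forms with Nfib overlapped control. Omitting the 2 doubted arrays, the Nfib difference was +0.41 ± 0.39, while the Nfib+Mycl1 difference was +1.30 ± 0.39 and passed. The array that remained for Nfib+Mycl1, at 8.92, lay above both control arrays. Acta2, smooth muscle alpha-actin, read between 12.46 and 13.53 on all 16 arrays with its bright probe set, and no difference from control passed. Its dim probe set (1456658_at) read 4.58 and 4.61 with Nfib, against 5.23 and 7.17 in 3583T3 control cells, a difference of -1.61 ± 0.62 that did not pass the threshold. Its 3151T4 arrays read 3.55 to 5.41. The correlation of the 2 Acta2 probe sets over the 8 group means was 0.78.

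Calponins and transgelin bind actin filaments and damp the myosin motor or stabilise the filament. Tagln, transgelin or SM22-alpha, followed Myl9 in 3151T4, with 8.70 and 8.33 in Nfib cells, 10.79 and 11.14 in Mycl1 cells and 8.69 and 8.95 in Nfib+Mycl1 cells, against 11.38 and 10.91 in control cells. The Nfib and Nfib+Mycl1 arrays overlapped each other and lay below the rest, by 2.63 ± 0.30 with Nfib (6.19-fold lower) and by 2.33 ± 0.30 with Nfib+Mycl1 (5.02-fold lower) relative to control. In 3583T3 Tagln read 12.30 and 11.89 with Nfib, 13.15 and 12.31 with Mycl1 and 12.70 and 13.23 with Nfib+Mycl1, against 12.66 and 13.30 in control cells. The Nfib arrays there lay below control by 0.89 ± 0.30, and the Nfib+Mycl1 difference was -0.01 ± 0.30. These were -0.68 ± 0.35 and -0.28 ± 0.35 when the doubted arrays were omitted.

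Cnn1, calponin 1, was lower with Nfib in the line where Myh11 was lower. In 3583T3 it read 9.45 and 8.09 with Nfib, 11.04 and 10.36 with Mycl1 and 8.24 and 9.97 with Nfib+Mycl1, against 10.95 and 11.39 in control cells. The differences were -2.40 ± 0.49 with Nfib (5.27-fold lower) and -2.07 ± 0.49 with Nfib+Mycl1 (4.19-fold lower), and -0.47 ± 0.49 with Mycl1, whose arrays overlapped control. They were -1.72 with Nfib and -2.93 with Nfib+Mycl1 without the 2 doubted arrays. In 3151T4 Cnn1 read 7.94 and 7.72 with Nfib, 8.14 and 8.61 with Mycl1 and 7.74 and 7.58 with Nfib+Mycl1, against 9.01 and 8.52 in control cells. The forms with Nfib again lay below control, by 0.93 ± 0.49 and 1.11 ± 0.49, which did not pass the threshold within that line. Without the 2 doubted arrays, which enter only the spread here, they were -0.93 ± 0.26 and -1.11 ± 0.26, and both passed. Cnn2, the calponin of nonmuscle cells, read between 11.28 and 12.40 on all 16 arrays, and none of its differences from control passed.

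Tropomyosins lie along the actin filament and gate its access to myosin. Tpm1, alpha-tropomyosin, read 12.62 and 12.32 with Nfib against 12.91 and 13.37 in 3583T3 control cells by its brightest probe set (1423049_a_at), and 11.58 and 10.98 with Nfib against 12.26 and 11.98 in 3151T4 control cells. The Nfib arrays lay below control in both lines, by 0.67 ± 0.26 in 3583T3 and 0.84 ± 0.26 in 3151T4, and neither difference passed. With 1423721_at the Nfib arrays overlapped control in both lines. They read 12.26 and 11.99 against 12.24 and 12.49 in 3583T3, and 11.95 and 11.81 against 12.01 and 11.60 in 3151T4. With 1456623_at they lay below control, at 10.72 and 9.92 against 10.93 and 11.18 in 3583T3. In 3151T4 that probe set read 8.01 and 7.34 with Nfib against 8.30 and 8.59. Correlations between the 3 Tpm1 probe sets over the 8 group means ran between 0.62 and 0.88. Tpm2, beta-tropomyosin, has 4 probe sets, of which the brightest (1425028_a_at) read 11.90 and 12.14 with Nfib+Mycl1 against 12.74 and 12.44 in 3151T4 control cells, a difference of -0.57 ± 0.15 (1.48-fold lower). Its dimmest probe set (1419739_at) read 9.45 and 8.19 with Nfib, 9.78 and 9.74 with Mycl1 and 8.27 and 9.78 with Nfib+Mycl1, against 9.75 and 10.26 in 3583T3 control cells. Its Nfib difference of -1.19 ± 0.43 did not pass. When the doubted arrays were omitted, it was -0.56 ± 0.27 with Nfib, which did not pass, and -1.74 ± 0.27 with Nfib+Mycl1, which did. Correlations between Tpm2 probe sets ran between 0.77 and 0.99.

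Tnnc2 encodes the calcium-binding troponin C of fast skeletal muscle and is not part of the smooth muscle filament. In 3151T4 it read 9.92 and 9.83 with Nfib, 3.53 and 3.72 with Mycl1 and 9.04 and 8.92 with Nfib+Mycl1, against 3.30 and 3.13 in control cells. All 4 arrays with Nfib stood far above the other 4, by 6.66 ± 0.18 with Nfib (101-fold higher signal than control) and 5.76 ± 0.18 with Nfib+Mycl1 (54.3-fold higher), where control lay below the filter level, so that the size of the fold depends on the background correction. In 3583T3 it read 2.99 to 3.23 on all 8 arrays, with a Nfib difference of 0.03 ± 0.18.

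**Figure D2:**
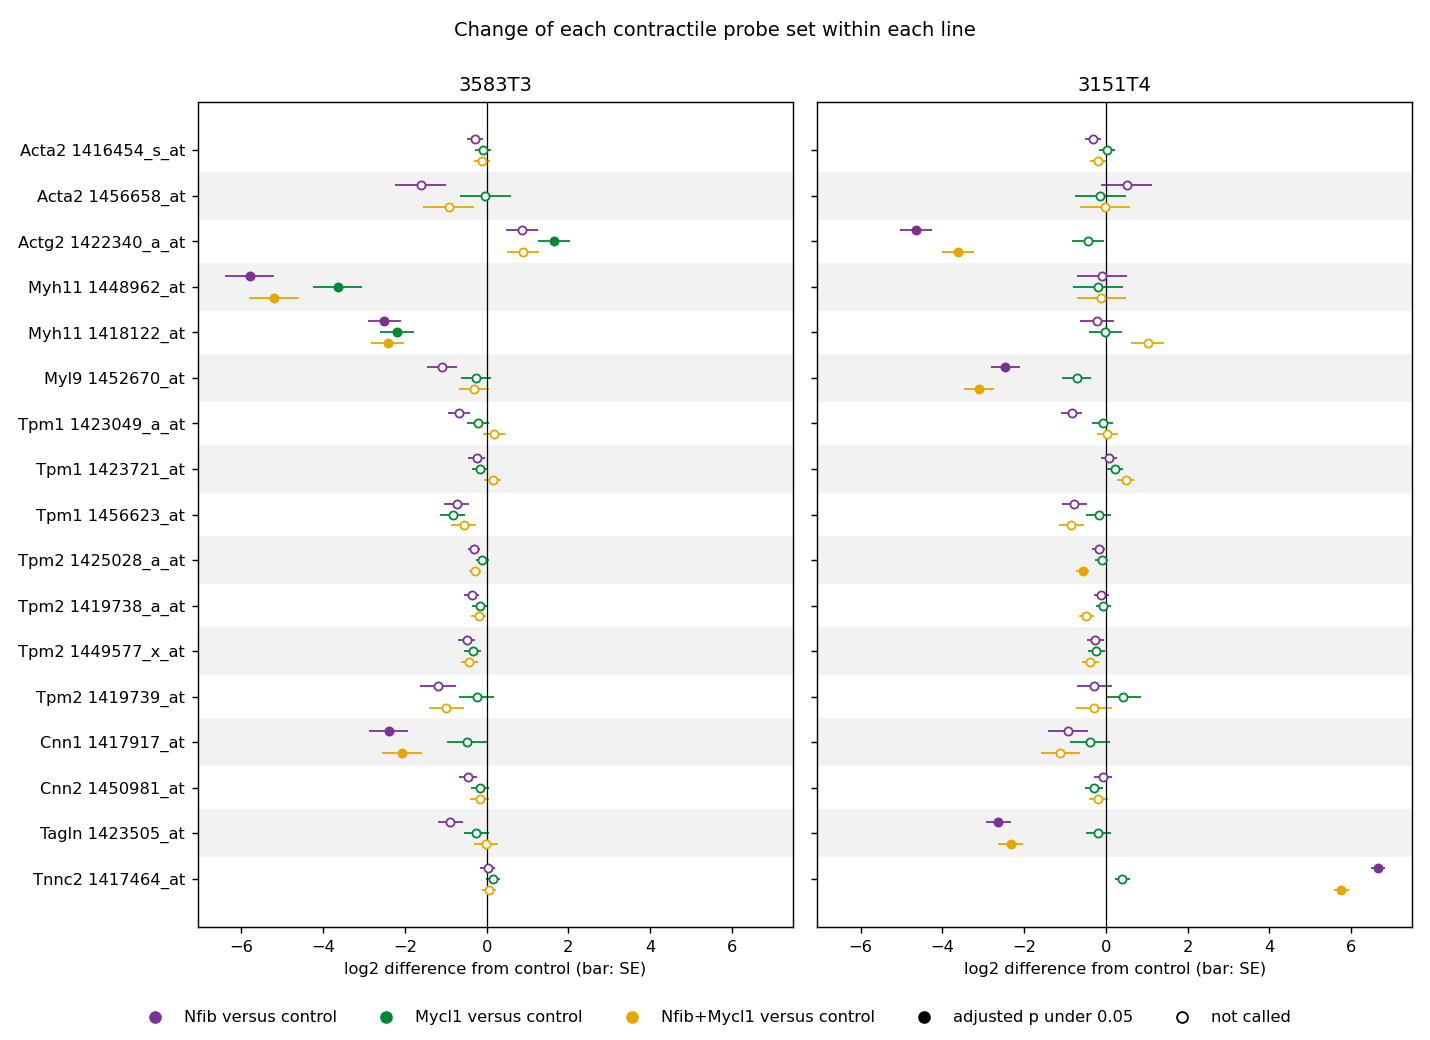
Log2 difference from control (horizontal axis) of the 17 probe sets (vertical axis), in separate panels for 3583T3 and 3151T4, 2 arrays per group. Colours mark the vector form: Nfib (purple), Mycl1 (green) and Nfib+Mycl1 (yellow). Bars are standard errors from limma, and filled points passed an adjusted p of 0.05 over all 15799 probe sets. Both Myh11 probe sets and Cnn1 are furthest left in 3583T3, down to -5.79, and Actg2, Tagln and Myl9 in 3151T4, where Tnnc2 reaches +6.66.

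Each comparison was fitted over all 15799 probe sets with limma, and a probe set counts as called where its p, adjusted by the Benjamini-Hochberg method over all of them, was under 0.05. Since the same differences shaped the choice of genes, the counts that follow describe them and nothing is read from them. Shares of all probe sets are by the adjusted p, so counts at an unadjusted p, a looser threshold, cannot be set against them. Within 3583T3, Nfib against control called 3 of the 17 probe sets, both of Myh11 and that of Cnn1, where 8.23% of all probe sets were called. Mycl1 against control called 3, both of Myh11 (lower) and that of Actg2 (higher), where 2.39% of all were called. Nfib+Mycl1 against control called the same 3 probe sets of Myh11 and Cnn1 as Nfib, where 11.1% of all were called. Without the 2 doubted arrays Nfib again called 3 (5.54% of all), and Nfib+Mycl1 called 6 (17.5% of all), which added Actg2 at +1.30 and the Tpm2 probe sets 1419739_at at -1.74 and 1449577_x_at at -0.60.

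Some of these calls depended on single arrays. The call of Cnn1 with Nfib in 3583T3 was lost without control replicate 2 (-2.18) or Nfib replicate 2 (-1.72), and with Nfib+Mycl1 without control replicate 1 (-2.28), Nfib+Mycl1 replicate 1 (-1.20) or control replicate 2 (-1.85). That of Actg2 with Mycl1 was lost without control replicate 1 (+1.10), Mycl1 replicate 1 (+1.79) or Mycl1 replicate 2 (+1.51). That of the dimmer Myh11 probe set with Mycl1 was lost without control replicate 2 (-1.93) or Mycl1 replicate 2 (-2.04). The brighter Myh11 probe set kept its 3 calls in 3583T3 under every alternative run.

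Within 3151T4, Nfib against control called 4 of the 17 probe sets, those of Actg2, Tagln and Myl9 (lower) and of Tnnc2 (higher), where 11.8% of all probe sets were called. Nfib+Mycl1 against control called 5, the same 4 and Tpm2 (1425028_a_at), where 28.1% of all were called. Mycl1 against control called 0 of the 17 with limma, where 15.1% of all were called, with 1 of the 17 at an unadjusted p under 0.05. The calls of Actg2, Tagln, Myl9 and Tnnc2 in 3151T4 held under every alternative run. That of Tpm2 was lost without control replicate 3 (-0.42) or Nfib+Mycl1 replicate 3 (-0.45). The doubted arrays belong to the other line but enter the estimate of the spread. Without them Cnn1 was also called lower, with Nfib (-0.93) and with Nfib+Mycl1 (-1.11), and Tpm1 (1456623_at) with Nfib+Mycl1 (-0.84).

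**Figure D3:**
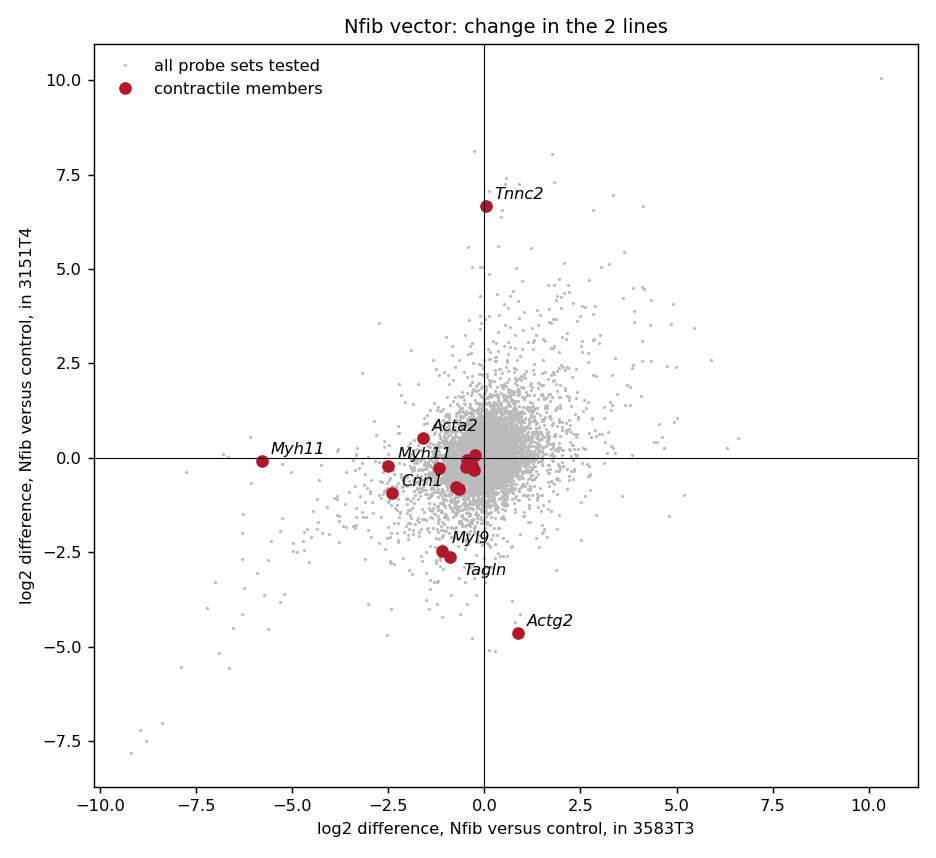
Log2 difference of Nfib from control in 3151T4 against that in 3583T3 for all 15799 tested probe sets (grey) and the 17 probe sets of the contractile genes (red, the furthest labelled), 2 arrays per group. Myh11 lies at -5.79 for 3583T3 and near 0 for 3151T4, Tnnc2 at 6.66 for 3151T4 and near 0 for 3583T3, and Actg2 at -4.65 for 3151T4 and +0.87 for 3583T3.

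Whether a vector's effect differed between the lines was fitted as the change in 3583T3 minus the change in 3151T4. For Nfib, 5 of the 17 probe sets were called, where 5.61% of all probe sets were called. The difference between lines was -6.63 ± 0.26 for Tnnc2, 5.52 ± 0.55 for Actg2, 1.74 ± 0.42 for Tagln, and -5.71 ± 0.86 and -2.28 ± 0.58 for the Myh11 probe sets 1448962_at and 1418122_at. The call of Tagln was lost without 3583T3 control replicate 1 (1.42), 3583T3 Nfib replicate 1 (1.54), 3151T4 control replicate 3 (1.51) or 3151T4 Nfib replicate 4 (1.56). That of 1418122_at was lost without any of 7 single control or Nfib arrays, all but 3583T3 control replicate 1 (-2.02 to -2.37), and with centring on array medians (-2.20). Leaving out the doubted arrays gave 5 calls (6.01% of all), with Myl9 at 1.75 in place of 1418122_at.

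For Nfib+Mycl1, 6 of the 17 differed between the lines, where 4.94% of all probe sets were called. They were Tnnc2 at -5.71 ± 0.26, Actg2 at 4.51 ± 0.55, Tagln at 2.32 ± 0.42, Myl9 at 2.80 ± 0.51, and the Myh11 probe sets 1448962_at at -5.09 ± 0.86 and 1418122_at at -3.44 ± 0.58. Leaving out the doubted arrays gave 8 calls (6.91% of all), which added Cnn1 at -1.82 and Tpm2 (1419739_at) at -1.45. For Mycl1, 0 of the 17 were called with limma, where 1.43% of all were called, with 3 of the 17 at an unadjusted p under 0.05. When the doubted arrays were omitted, which are in neither of its groups but enter the estimate of the spread, 2 were called (2.9% of all), Actg2 at 2.09 and Myh11 (1448962_at) at -3.45. The Myh11 part of these differences has its 3151T4 side below the filter level in every form, and the Tnnc2 part its 3583T3 side.

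Over both lines together, in a fit with line and vector as separate terms, Nfib against control called 4 of the 17 probe sets, where 8.46% of all probe sets were called. All were lower: Cnn1 by 1.67 ± 0.39, Tagln by 1.76 ± 0.43, Myl9 by 1.77 ± 0.45 and Tpm1 (1423049_a_at) by 0.75 ± 0.18. The median difference was -0.73 over the 17 and 0.02 over all probe sets, and 16 of the 17 were below 0. Myh11 at -2.94 ± 0.89, Actg2 at -1.89 ± 0.81 and Tnnc2 at +3.34 ± 1.10 did not pass. This fit gives a vector 1 effect in both lines, so a response that differed between the lines is counted as spread. Without the 2 doubted arrays 5 were called (7.89% of all), which added Tnnc2 at +4.01. A fit on the 8 group means, which takes such a response out of the spread, called 9 for this comparison (15.1% of all).

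The pooled Nfib calls rested on few arrays. That of Cnn1 was lost without 3583T3 control replicate 2 (-1.47). That of Tpm1 was lost without that array (-0.68), 3151T4 control replicate 3 (-0.69) or 3151T4 Nfib replicate 4 (-0.62). That of Tagln was lost without any of the 4 control and Nfib arrays of 3151T4 (-1.49 to -1.69). That of Myl9 was lost without any of the same 4 (-1.48 to -1.82) or without 3583T3 Nfib replicate 2 (-1.67).

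Nfib+Mycl1 against control called 6 of the 17, where 29% of all probe sets were called. All 6 were lower: Cnn1 by 1.59 ± 0.39, Myl9 by 1.71 ± 0.45, Myh11 by 2.66 ± 0.89, Tpm1 (1456623_at) by 0.70 ± 0.24, and Tpm2 by 0.43 ± 0.11 (1425028_a_at) and 0.40 ± 0.14 (1449577_x_at). The 2 brighter Tpm1 probe sets went the other way and were not called. Their means were 12.74 against 12.63 in control cells (1423049_a_at) and 12.40 against 12.08 (1423721_at). The median difference was -0.47 over the 17 and 0.04 over all probe sets. Without the 2 doubted arrays 10 were called (32.7% of all), among them Myl9 at -2.20, Cnn1 at -1.81, Tagln at -1.52 and Tnnc2 at +3.45. With 8 group means 10 were called (37.6% of all). With no filter, and likewise with the replicate number as a block, 3 were called, those of Myh11, Tpm1 and 1449577_x_at being lost. The shares of all probe sets called under those alternatives are not given. The call of Myh11 was lost without 3583T3 control replicate 1 (-2.03), 3583T3 Nfib+Mycl1 replicate 1 (-1.94), 3583T3 control replicate 2 (-1.98) or 3151T4 Nfib+Mycl1 replicate 4 (-2.87). That of Myl9 was lost without 3151T4 Nfib+Mycl1 replicate 3 (-1.39). That of Tpm1 was lost without any of 6 single arrays (-0.62 to -0.73), the exceptions being 3151T4 control replicate 3 and 3583T3 Nfib+Mycl1 replicate 2, and that of 1449577_x_at without any of 7 (-0.34 to -0.44), the exception being 3583T3 Nfib+Mycl1 replicate 2, and also with no mean-variance trend.

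Mycl1 against control called 0 of the 17 with limma, where 9.96% of all probe sets were called, with 1 of the 17 at an unadjusted p under 0.05. Its median difference was -0.14 over the 17 and 0.04 over all. With 8 group means it called 2 (21.8% of all). Nfib+Mycl1 against Mycl1, the comparison of both transgenes with Mycl1 alone, called 0 of the 17 with limma, where 2.96% of all were called, with 7 of the 17 at an unadjusted p under 0.05. With 8 group means it called 5 (10% of all). Without the 2 doubted arrays it called 3 (2.2% of all): Cnn1 at -1.38, Myl9 at -1.71 and Tpm2 (1425028_a_at) at -0.43. Nfib+Mycl1 against Nfib called Tpm1 (1423049_a_at) at +0.87, where 15.3% of all were called. That call was lost without 3151T4 Nfib+Mycl1 replicate 3 (+0.83) or 3151T4 Nfib replicate 4 (+0.74). Without the 2 doubted arrays this comparison called 2 (25.5% of all), the same probe set at +0.78 and 1 of Tpm2 at -0.37, and with 8 group means also 2 (25.9% of all). In these bulk cultures fewer cells expressing a gene and less of its RNA per cell cannot be told apart.

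The rest of the smooth muscle contractile apparatus was followed in a list of 30 further genes, of which 20 were tested, each by its brightest probe set past the filter. Des, Synpo2, Pdlim3 and Kcnmb1, which belong to differentiated muscle, did not pass the filter, with no value above 3.60. Over both lines Nfib raised 1 of the 20 and lowered 4, Mycl1 raised 0 and lowered 1, and Nfib+Mycl1 raised 0 and lowered 12, where 8.46%, 9.96% and 29% of all probe sets were called. The median difference of the list was -0.21 with Nfib, -0.13 with Mycl1 and -0.41 with Nfib+Mycl1, against 0.02, 0.04 and 0.04 over all probe sets. The counts without the doubted arrays were 1 and 3 with Nfib (7.89% of all called), 0 and 2 with Mycl1 (share of all not given) and 0 and 14 with Nfib+Mycl1 (32.7% of all called).

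Lmod1, leiomodin, which nucleates actin filaments in smooth muscle, fell by 1.36 ± 0.32 with Nfib (limma adjusted p = 0.015), by 1.34 ± 0.32 with Mycl1 (adjusted p = 0.0246) and by 2.10 ± 0.32 with Nfib+Mycl1 (adjusted p = 0.000789). Its Nfib call was lost without 3583T3 control replicate 2 (-1.26), and its Mycl1 call without any of the 4 control arrays or 3151T4 Mycl1 replicate 4 (-1.25 to -1.39). Pdlim7, an adaptor at actin filaments, fell by 1.02 ± 0.12 with Nfib (adjusted p = 9.58e-05) and by 0.72 ± 0.12 with Nfib+Mycl1 (adjusted p = 0.00126). Csrp1, a LIM protein of smooth muscle, fell by 0.76 ± 0.16 with Nfib+Mycl1 (adjusted p = 0.00393). Ppp1r14a, the inhibitor of myosin phosphatase known as CPI-17, fell by 1.31 ± 0.38 with Nfib (adjusted p = 0.0444) and by 1.20 ± 0.38 with Nfib+Mycl1 (adjusted p = 0.0299). Its 3151T4 arrays read 2.99 to 3.61, below the filter level. Both its calls are fragile, the Nfib one being lost without any of the 4 control and Nfib arrays of 3583T3 (-1.23, without Nfib replicate 1, is the furthest from 0) or 3151T4 Nfib replicate 4 (-1.45), and the Nfib+Mycl1 one without 3583T3 control replicate 1 (-0.98), Nfib+Mycl1 replicate 1 (-0.93) or control replicate 2 (-0.88). Aoc3, a surface amine oxidase of vascular smooth muscle and fat cells, rose by 1.69 ± 0.40 with Nfib (adjusted p = 0.015), a call lost without 3151T4 Nfib replicate 3 (1.37) or replicate 4 (1.49).

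Within the lines this list also divided. In 3583T3 Nfib raised 1 of the 20 and lowered 5, and Nfib+Mycl1 raised 1 and lowered 6, where 8.23% and 11.1% of all probe sets were called. Ppp1r14a fell by 2.48 ± 0.29 with Nfib (limma adjusted p = 5.71e-05), while Mylk, the kinase that phosphorylates the regulatory light chain, rose by 1.88 ± 0.39 (adjusted p = 0.00693). The Mylk call was lost without control replicate 2 (1.68) or Nfib replicate 2 (1.15). Omitting the 2 doubted arrays leaves 1 Nfib array in this line. Fewer of the 20 were then lowered and more raised with Nfib, and fewer of all probe sets were called. In 3151T4 Nfib raised 1 of the 20 and lowered 3, and Nfib+Mycl1 lowered 7, where 11.8% and 28.1% of all were called. Ldb3, a Z-line protein that binds actinin, fell there by 2.19 ± 0.27 with Nfib (adjusted p = 6.69e-05), and Aoc3 rose by 2.30 ± 0.31 (adjusted p = 0.000194). The change with Nfib, 3583T3 minus 3151T4, was -2.33 for Ppp1r14a (adjusted p = 0.00326) and 2.79 for Ldb3 (adjusted p = 0.000484). Ppp1r14a was below the filter level on all arrays of 3151T4, at 2.99 to 3.61, so a fall could not have been measured there.

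**Figure D4:**
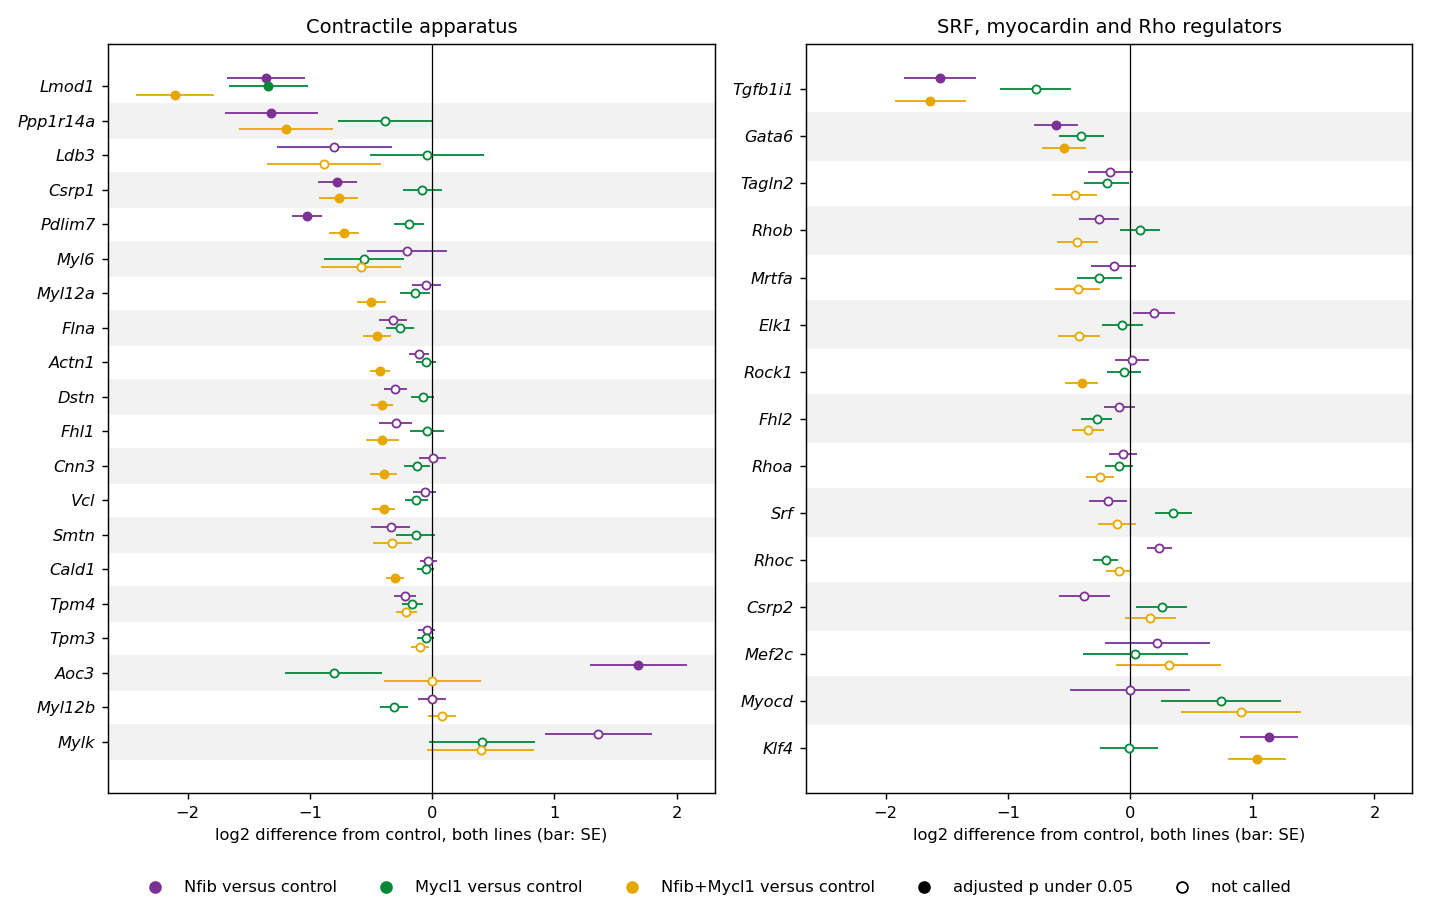
Log2 difference from control (horizontal axis) with Nfib, Mycl1 and Nfib+Mycl1 over both lines, 4 arrays per vector, for the 20 tested genes of the contractile apparatus and the 15 tested regulators (vertical axis). Bars are standard errors and filled points passed an adjusted p of 0.05 in limma. Of the Nfib+Mycl1 points of the 20 apparatus genes, 12 are filled and lie left of 0.

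Regulators of these genes were followed in a list of 18, of which 15 were tested. Over both lines Nfib raised 1 and lowered 2, Mycl1 raised 0 and lowered 0 (limma, with 3 at an unadjusted p under 0.05), and Nfib+Mycl1 raised 1 and lowered 3. Of all probe sets 8.46%, 9.96% and 29% were called, so the 4 of 15 with Nfib+Mycl1 is a share near that of all. The median differences of the list were -0.09, -0.06 and -0.35. Omitting the 2 doubted arrays, Nfib raised 1 and lowered 1 (7.89% of all called), Mycl1 raised 0 and lowered 1 (share of all not given), and Nfib+Mycl1 raised 1 and lowered 3 (32.7% of all called). Tgfb1i1, the focal adhesion protein Hic-5, a coactivator known to promote smooth muscle genes, fell by 1.55 ± 0.29 with Nfib (adjusted p = 0.00373) and by 1.63 ± 0.29 with Nfib+Mycl1 (adjusted p = 0.00179). Klf4, a zinc finger factor known to repress smooth muscle genes, rose by 1.14 ± 0.24 with Nfib (adjusted p = 0.00721) and by 1.04 ± 0.24 with Nfib+Mycl1 (adjusted p = 0.0062). Gata6 fell by 0.61 with Nfib (adjusted p = 0.0496), a call lost without any of 6 single arrays (-0.51 to -0.68). Myocd, myocardin itself, rose by 1.81 ± 0.47 in 3151T4 with Nfib+Mycl1 (adjusted p = 0.0132), at 6.64 and 4.33 against 3.71 and 3.63 in control cells. The call was lost without Nfib+Mycl1 replicate 3 (0.66) or control replicate 4 (1.78). Srf itself was not called over both lines in any of the 3 comparisons with control. In 3151T4 it rose by 0.67 ± 0.17 with Mycl1 (adjusted p = 0.0197), at 9.63 and 9.75 against 9.17 and 8.87 in control cells. That call was lost without Mycl1 replicate 3 (0.73), control replicate 4 (0.52) or Mycl1 replicate 4 (0.61).

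Nonmuscle actins, myosins and their partners are the cytoskeletal relatives of these genes. Of the 10 tested of 12 listed, 0 were called with any of the 3 vector forms over both lines (limma), and 2 had an unadjusted p under 0.05 in each comparison. The shares of all probe sets called were 8.46% with Nfib, 9.96% with Mycl1 and 29% with Nfib+Mycl1.

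Genes of striated muscle were examined because of Tnnc2. Of 37 listed, 34 were on the array and 13 were tested, and Myod1, Myog, Ckm and Myh4, which define skeletal muscle, did not pass the filter, with no value above 3.06. Over both lines Nfib raised 0 and lowered 1, Mycl1 raised 0 and lowered 0 (limma, with 1 at an unadjusted p under 0.05), and Nfib+Mycl1 raised 3 and lowered 1. Of all probe sets 8.46%, 9.96% and 29% were called, so the Nfib+Mycl1 count is a share near that of all. Omitting the 2 doubted arrays, Nfib raised 0 and lowered 0, and Nfib+Mycl1 raised 3 and lowered 2 (7.89% and 32.7% of all called). In 3151T4 with Nfib the fast troponin T gene Tnnt3 rose by 1.72 ± 0.22 (adjusted p = 0.000111) and the fast troponin I gene Tnni2 by 0.97 (adjusted p = 0.0434), while the slow troponin I gene Tnni1 fell by 1.04 (adjusted p = 0.0033). Tnni1 read 3.11 and 2.91 with Nfib, below the filter level, against 4.06 and 4.04 in control cells. The Tnni2 call was lost without any of the 4 arrays compared (0.85 to 1.10). With Nfib+Mycl1, Tnnt3 rose by 1.99 ± 0.22 (adjusted p = 4.51e-05) and Tnni2 by 1.58 (adjusted p = 0.00183) in that line. The Tnnt3 change with Nfib, 3583T3 minus 3151T4, was -1.70 (adjusted p = 0.00465). Its 3583T3 arrays read 2.36 to 2.94, below the filter level. In 3583T3 Acta1, skeletal alpha-actin, was lower by 1.61 ± 0.19 with Nfib, at 3.055 and 3.124 against 4.785 and 4.611 in control cells. Only those control arrays exceeded log2 4, so Acta1 passed the filter through them alone. The size of its fall depends on the background correction.

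Markers of other cell types moved with the vector as well, and their part in the results above was not tested. All 12 leukocyte markers were tested, and Nfib lowered 11, Mycl1 12 and Nfib+Mycl1 12 of them over both lines. Over all probe sets 8.46%, 9.96% and 29% were called. The summed linear signal of the leukocyte markers in 3583T3 was 93 to 108 with Nfib, 120 to 129 with Mycl1 and 106 to 111 with Nfib+Mycl1, against 8625 to 15045 in control cells. In 3151T4 it was 801 to 826 with Nfib, 173 to 187 with Mycl1 and 176 to 183 with Nfib+Mycl1, against 3616 to 3913 in control cells. The summed leukocyte signal was lower with every vector form in both lines. Cd53 did not fall with Nfib in 3151T4, at 8.36 and 8.57 against 8.28 and 7.57 in control cells.

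Pericyte and endothelial markers belong to the vessel wall. Of 10 pericyte markers 4 were tested, and Nfib lowered 1, Mycl1 1 and Nfib+Mycl1 2, while Higd1b, Cspg4, Kcnj8 and Cox4i2 did not pass the filter. Among all probe sets 8.46%, 9.96% and 29% were called with these forms over both lines. The summed pericyte signal in 3583T3 was 1341 to 2544 with Nfib, 3289 to 3320 with Mycl1 and 1532 to 2413 with Nfib+Mycl1, against 4544 to 4571 in control cells. In 3151T4 it was 1250 to 1319 with Nfib, 1857 to 2154 with Mycl1 and 1295 to 1466 with Nfib+Mycl1, against 3004 to 3243 in control cells. Mcam, a surface adhesion molecule also made by other cells, carried nearly all of the 3583T3 sum, and fell by 1.48 ± 0.19 with Nfib over both lines (limma adjusted p = 0.000214). Notch3 went the other way in 3583T3, at 4.05 and 5.89 with Nfib, 5.52 and 4.93 with Mycl1 and 6.04 and 3.32 with Nfib+Mycl1, against 2.93 and 3.09 in control cells. Anpep rose by 1.01 with Nfib in 3151T4 (adjusted p = 0.0461) relative to control cells, a call lost without any of the 4 arrays compared (0.76 to 1.25). Rgs5 in 3151T4 read 2.89 and 3.17 with Nfib, 4.05 and 3.37 with Mycl1 and 2.80 and 2.31 with Nfib+Mycl1, against 8.01 and 8.29 in control cells, a fall of 5.12 ± 0.28 with Nfib (adjusted p = 2.19e-08). Its Nfib arrays lay below the filter level, so the size of that fall depends on the background correction.

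Of 10 endothelial markers 5 were tested, and 0 were called over both lines (limma), with 0 at an unadjusted p under 0.05, while Pecam1, Cdh5, Tie1 and Tek did not pass the filter. Their summed signal in 3583T3 was 193 to 846 with Nfib, 1522 to 1595 with Mycl1 and 216 to 681 with Nfib+Mycl1, against 2648 to 2707 in control cells, and in 3151T4 96 to 110 on all arrays. Nearly all of the 3583T3 control sum was Esam, so it does not speak for the class. Eng lay on the other side, at 5.39 and 6.29 with Nfib against 4.59 and 5.62 in 3583T3 control cells, and Egfl7 at 4.46 and 4.81 against 4.32 and 4.07. Kdr lay on the same side as Esam, at 4.23 and 4.18 with Nfib against 4.87 and 4.91 in those control cells. Its fall was called, a call lost in 5 of the 10 alternatives run. Emcn was lower too, at 2.13 and 2.26 with Nfib, below the filter level, against 3.54 and 8.47 in the control cells. Esam read 9.52 and 5.26 with Nfib, 10.41 and 10.43 with Mycl1 and 5.54 and 9.17 with Nfib+Mycl1, against 11.31 and 11.12 in 3583T3 control cells. Its fall of 3.82 ± 1.08 with Nfib (adjusted p = 0.0438) was lost without Nfib replicate 2 (-1.69), control replicate 1 (-3.73) or control replicate 2 (-3.92).

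All 14 fibroblast markers were tested, and over both lines Nfib raised 6 and lowered 0, Mycl1 raised 0 and lowered 3, and Nfib+Mycl1 raised 2 and lowered 0. The shares called over all probe sets were 8.46%, 9.96% and 29%, and the Nfib+Mycl1 count lies below its share. Omitting the 2 doubted arrays, Nfib raised 4 (7.89% of all called), Mycl1 lowered 3 (share of all not given), and Nfib+Mycl1 raised and lowered 0 (32.7% of all called). The summed fibroblast signal in 3151T4 was 44797 to 48454 with Nfib, 18814 to 21287 with Mycl1 and 24809 to 28631 with Nfib+Mycl1, against 32910 to 33860 in control cells. In 3583T3 it was 23861 to 26543 with Nfib, 12949 to 17821 with Mycl1 and 26053 to 27422 with Nfib+Mycl1, against 12772 to 15482 in control cells. Of 5 myoepithelial and basal markers 2 were tested, of which Nfib raised 1 over both lines, and Krt5 and Krt17 did not pass the filter. Their sum in 3151T4 was 623 to 741 with Nfib, 283 to 310 with Mycl1 and 235 to 282 with Nfib+Mycl1, against 208 to 209 in control cells, and in 3583T3 it was 32 to 46 on all arrays.

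The members moved together only in part. Over the 16 arrays, with each line centred on its own mean, the correlation of Tagln with Myl9 was 0.95, and it was 0.93 over the 8 arrays of 3583T3 and 0.95 over the 8 of 3151T4. Tagln with Actg2 gave 0.99 over the 8 arrays of 3151T4 and -0.22 over those of 3583T3. Cnn1 with Myh11 gave 0.90 in 3583T3 and 0.18 in 3151T4, where Myh11 was below the filter level. Tnnc2 with Tagln gave -0.99 in 3151T4 and -0.20 in 3583T3, where Tnnc2 was below it. Acta2 with Cnn2, neither of which was called in any comparison with control, gave 0.99 in 3583T3 and 0.36 in 3151T4. These correlations have no p-value, since arrays of a group share their cells and processing.

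The genes whose pattern over the 8 group means was most like that of a member were sought among 7926 probe sets that passed the filter, carried a single symbol and spanned at least 1 log2 unit. For Tagln, whose group means spanned 4.46, they were Krt7 (r = 0.997), Kctd5 (0.995) and Fam110c (0.989). For Myl9, spanning 4.95, they were Fblim1 (0.987), Tagln (0.986) and Kctd5 (0.986), so a member stood among the 3 nearest of another. For Myh11, spanning 8.15, they were Rhpn2 (0.993), Mogat2 (0.985) and Acta1 (0.984). For Cnn1, spanning 3.52, they were Snx15 (0.993), Rusc2 (0.993) and Adgrg1 (0.990). The nearest to Actg2, spanning 4.78, were Fkbp5 (0.937), Mmd (0.927) and Slc3a1 (0.925), less close than for the other members. The nearest to Tnnc2, spanning 6.85, were Lhx8 (0.990), Car9 (0.983) and Glis1 (0.980). For Tpm1 they were Irs2 (0.984), Klc1 (0.982) and Mapre1 (0.979), and for Tpm2 Src (0.992), Ubap1 (0.991) and Myo1e (0.990). Acta2 and Cnn2 spanned 0.71 and 0.83, under 1 log2 unit, and were not matched. These likenesses have no p-value and describe these arrays alone.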

How the data were processed

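The submitters' processing notes name GCRMA 2.20.0 in R 2.11.0, and the authors deposited 1 value per probe set and array, which the values show to be on the log2 scale. Per the labels' protocols, cDNA was made from 100 ng of total RNA with an amplification kit. Genes were named from the platform annotation, brought up to date through RefSeq.

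Differences and their moderated standard errors came from limma 3.58.1 in R 4.3.3. Comparisons over both lines used vector and line as additive terms on all 16 arrays, and those within a line, or between lines, used 8 group means. Probe sets above log2 4 on at least 2 arrays were tested (15799, with 64 control probe sets left out), and p-values were adjusted over all of them (Benjamini-Hochberg, 0.05). The script was tested on simulated data. The number of arrays limits the precision. The 10 genes and the gene lists were chosen with earlier results of these data known. Named list genes are up to 4 of the largest called differences per list and comparison, and genes like a member the 3 with the highest correlation over group means. Undetected markers, Srf, and genes named to describe a list were added to these. Alternatives changed the filter, probe sets, normalization, centring, variance trend, model and arrays. Tables and plots used pandas 2.3.3, numpy 2.4.6 and matplotlib 3.10.9.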

Additional observations from a re-analysis of the deposited data

Results flagged for a closer look

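Differences between the lines were flagged for 6 probe sets, fitted as the change from control in 3583T3 minus that in 3151T4. The genes were chosen on differences on these same arrays, so these differences are given as a description. For Nfib they were -6.63 for Tnnc2, 5.52 for Actg2, 1.74 for Tagln, -5.71 for Myh11 (1448962_at) and -2.28 for Myh11 (1418122_at). For Nfib+Mycl1 they were -5.71 for Tnnc2, 4.51 for Actg2, 2.32 for Tagln, 2.80 for Myl9, -5.09 for Myh11 (1448962_at) and -3.44 for Myh11 (1418122_at). The 3151T4 group means of Myh11 and the 3583T3 group means of Tnnc2 lay below the filter level. The Nfib calls of Tagln and Myh11 (1418122_at) were lost under 4 and 9 alternatives.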

How the results depend on the processing

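Of the 17 probe sets of the contractile genes, the 8 group means in place of the additive model called 9 for Nfib against control, 2 for Mycl1 against control, 10 for Nfib+Mycl1 against control, 5 for Nfib+Mycl1 against Mycl1 and 2 for Nfib+Mycl1 against Nfib. Without a filter Nfib+Mycl1 against control called 3. Leaving out the 2 doubted arrays, an alternative chosen with earlier results of these data known, gave 10 for Nfib+Mycl1 against control, 3 for Nfib+Mycl1 against Mycl1, 2 for Nfib+Mycl1 against Nfib, 6 for Nfib+Mycl1 in 3583T3 and 2 for the Mycl1 difference between lines (Actg2 at 2.09 and Myh11 at -3.45). Same-numbered arrays correlated at -0.72 to 0.29 over 12 pairs of groups, over 0.1 in 5 (3 of 6 in 3151T4), and the groups with doubted arrays enter 5 of the 6 pairs in 3583T3, so the numbers were not taken to pair the samples. With the replicate block the counts were 4 for Nfib, 0 for Mycl1 and 3 for Nfib+Mycl1 against control, 0 for Nfib+Mycl1 against Mycl1 and 1 for Nfib+Mycl1 against Nfib.

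Leaving out single arrays gave 1 (without 3151T4 Nfib replicate 4) to 7 (without 3583T3 Nfib replicate 1) for Nfib, 0 to 0 for Mycl1 and 3 (without 3583T3 Nfib+Mycl1 replicate 1 or either 3151T4 Nfib+Mycl1 array) to 10 (without 3583T3 Nfib+Mycl1 replicate 2) for Nfib+Mycl1 against control, 0 to 1 for Nfib+Mycl1 against Mycl1 and 0 to 1 against Nfib. It gave 2 to 7 (without Nfib replicate 1), 1 (without Mycl1 replicate 2) to 2 and 2 to 4 for Nfib, Mycl1 and Nfib+Mycl1 in 3583T3, and 4 to 5, 0 to 0 and 4 to 7 in 3151T4. For the differences between lines it gave 3 to 4, 0 to 1 and 6 to 6. With a group at 1 array, that array is assumed to vary like the others.

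The 40 called differences of these probe sets were recomputed 538 times. The call was kept in 473, lost in 65 and reversed in 0, and 24 of the 40 kept it throughout. Of 3028 values for called genes of the wider lists, 2517 kept the call, 511 lost it and 0 reversed. Of 3920 recomputed list counts, 490 moved by over 1.5 times. The cause was not tested.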
